A study of Mus musculus with 4 samples.

Results

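The mRNA levels of 10 genes of the integrated stress response were examined in mouse liver libraries: Atf4, Atf3, Ddit3, Trib3, Asns, Chac1, Sesn2, Psat1, Phgdh and Mthfd2. They were selected by symbol, with earlier results of these data known, and all 10 were found among the 15500 genes of the expression table. The libraries are labelled as liver of Kunming mice, an outbred strain, in 4 groups of 6 mice treated for 28 days after 1 week on normal chow. The study's methods describe the Vehicle and CLA mice as wild-type males bought at 5 weeks of age and sampled in the light phase, whereas the groups with GW6471 rest on the labels alone. The control group, Vehicle, received chow with 1.5% (w/w) linoleic acid, with vehicle injections where these applied. The CLA group received chow with 1.5% (w/w) conjugated linoleic acid, a dietary fatty acid mixture. The GW6471 group received the linoleic acid diet with a daily intraperitoneal injection of 20 mg/kg of GW6471, an antagonist of the lipid-sensing nuclear receptor PPARα, and the CLA+GW6471 group received the CLA diet with the same injection. The table holds 1 library per group, and the sources used here do not say if it combines RNA from several mice. No difference between conditions could therefore be tested, and each comparison describes a pair of libraries.

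The integrated stress response is the program by which a cell answers a shortage of amino acids, misfolded protein in the endoplasmic reticulum (ER), viral RNA or a lack of heme. Kinases that sense these states phosphorylate the initiation factor eIF2α, which slows translation in general while the mRNA of ATF4 is translated more. ATF4 then activates genes for amino acid synthesis and uptake, for charging of tRNA and for other transcription factors. Since ATF4 is controlled to a large extent at translation, its mRNA level is not a measure of its protein, which was not measured in these libraries. In the liver the pathway is best known for its responses to dietary protein shortage and to ER stress.

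ATF4 binds, together with C/EBP proteins, a composite element whose core letters are TGATGNAA on one strand and TTNCATCA on the other. Both strands of the RefSeq promoter windows, which run from 250 bases before to 50 bases after a transcription start, were searched for these letters. The letters occurred in windows of 4 of the 10 genes, as against 4.51% of the 27025 genes with a window and 3.32% of the 11367 such genes in the expression table. The windows are from the GRCm38.p6 annotation, and each of those of the 10 genes had 1 exact match in or beside its gene in mm9, the assembly of the study, which gave the positions below. The 4 stretches are shown because they set side by side genes whose levels differed in unlike ways between the libraries. They are written 5′ to 3′ on the strand of the gene, with the matched letters in capitals.
Atf3 (chr1:193007279-193007358, minus strand): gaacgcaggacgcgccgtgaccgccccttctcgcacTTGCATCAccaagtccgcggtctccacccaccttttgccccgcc
Chac1 (chr2:119176749-119176828, plus strand): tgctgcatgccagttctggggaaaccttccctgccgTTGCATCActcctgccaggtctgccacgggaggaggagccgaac
Asns (chr6:7643214-7643243, minus strand): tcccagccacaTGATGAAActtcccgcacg
Trib3 (chr2:152169764-152169793, minus strand): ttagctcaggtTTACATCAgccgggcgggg

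The first matched base lay 110 bases upstream of the RefSeq start of Atf3 and 193 bases upstream of that of Chac1, in sequence outside any annotated gene. In Asns it lay 23 bases upstream of the RefSeq start, where the mm9 annotation (GENCODE vM1) places the 5′ untranslated region of a longer Asns transcript. In Trib3 it lay 14 bases downstream of the RefSeq start, in sequence upstream of the mm9 gene model. The matched letters are identical in Atf3 and Chac1. The absence of the letters from the windows of Atf4, Ddit3, Sesn2, Psat1, Phgdh and Mthfd2 says only that they are not in these windows.

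All values are FPKM, fragment counts scaled to transcript length and to the number of mapped fragments, as the authors deposited them. The step size of low values gave estimated depths of 18760000 to 19260000 reads in the 4 libraries, and the FPKM summed to 497014.64 to 522893.02. Ratios are given as log2 of FPKM + 0.1. Intervals of a ratio (95%, exact Clopper-Pearson on the estimated reads) cover counting error only, not the difference between animals. A gene was called higher or lower from a ratio of 1.5-fold, and the background is the share of the 10355 genes with a mean of at least 1 FPKM that passed the same limit.

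The labels were checked against genes known for the tissue and the drug, and the check went against both in part. Of 20 hepatocyte genes, 16 were listed, and 10 of them had a mean below 1 FPKM, among them Cps1, Cyp2e1, Ttr and Ahsg at 0.0175, 0.065, 0.030 and 0.16 FPKM. The defining plasma protein genes Fga and Apoa1 were at 0.02 to 0.11 and 0.37 to 2.15 FPKM, while Alb was at 620.17 to 1321.55 FPKM. The summed level of the hepatocyte genes was 934.97 to 1868.42 FPKM, highest in CLA and lowest in CLA+GW6471, and was made up mostly of Alb, Trf and Fgb. Among the 6 genes with a mean of at least 1 FPKM, Fgb, Alb and Apob were the most variable. The other lists held 4 of 4 endothelial, 6 of 7 stellate cell and fibroblast, 5 of 7 macrophage and blood and 1 of 5 cholangiocyte genes below that mean. Dcn (1147.76 to 1506.01 FPKM), Spp1 (301.97 to 574.44 FPKM) and Sox9 (34.72 to 57.05 FPKM) were among the genes above it, as were Krt7 (18.43 to 23.47 FPKM) and the blood gene Hba-a1 (1.80 to 2.02 FPKM). Cd68, a macrophage gene, had 35.64 FPKM in CLA and 23.43 to 24.87 in the other libraries, and was called higher in CLA than in Vehicle (log2 ratio 0.60). Known targets of PPARα, chosen with their values known, were higher in the libraries labelled with the antagonist. Pdk4, for example, stood at 1.17 FPKM in Vehicle, 1.87 in CLA, 17.99 in GW6471, with 15.56 in CLA+GW6471. Cpt1a had 46.04 FPKM in GW6471 against 11.34 in Vehicle, and Acot1, which has a close paralog, had 15.04 against 2.34. All values below are given as labelled.

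The 10 genes were abundant in these libraries. Phgdh, the first enzyme of serine synthesis, had a mean of 624 FPKM, number 119 of the 15500 genes. Atf4 was number 134 with 499.62 FPKM, Asns number 174 with 384 FPKM and Ddit3 number 245 with 278 FPKM. Psat1, Trib3, Mthfd2, Atf3 and Chac1 followed at 217, 115, 85.6, 77.6 and 57.4 FPKM. Sesn2 was the lowest of the 10, at 17.9 FPKM, still above 71.1% of the listed genes. The median over all listed genes was 5.97 FPKM. All 10 passed the mean of 1 FPKM, so no member was left out. Summed, they reached 2540.67 FPKM in Vehicle, 2160.97 in CLA, 2376.66 in GW6471, with 2346.23 in CLA+GW6471, which is 0.413 to 0.496% of the FPKM of a library.

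**Figure D1:**
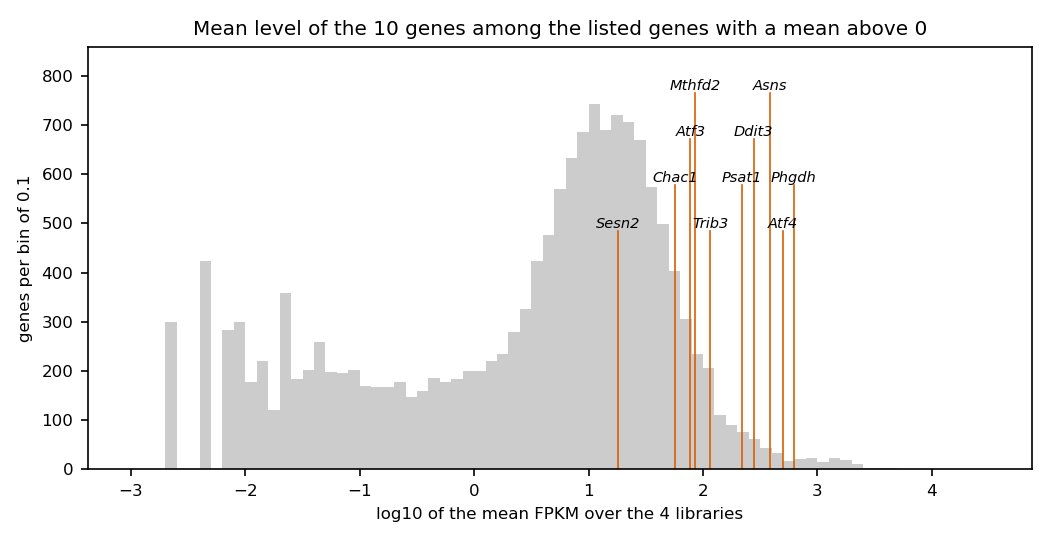
Histogram of the mean FPKM over the 4 libraries (log10 axis, bins of 0.1) for all listed genes with a mean above 0, with the 10 genes marked by lines. Phgdh, Atf4 and Asns sit at the upper end, and Sesn2, at 17.9 FPKM, sits inside the main peak.

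Between the libraries, 3 of the 10 genes differed by at least 1.5-fold from the highest to the lowest, Atf3, Ddit3 and Chac1, and Atf3 alone by at least 2-fold. Over all tested genes, 20.6% reached 1.5-fold and 4.82% reached 2-fold in this measure. The lowest value lay in the CLA library for 5 genes, Atf3, Ddit3, Trib3, Sesn2 and Mthfd2. It lay in CLA+GW6471 for 3 genes, Asns, Chac1 and Psat1, in GW6471 for Phgdh and in Vehicle for Atf4. Because these are bulk samples, fewer cells of a type and less RNA per cell cannot be told apart in any of these differences.

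**Figure D2:**
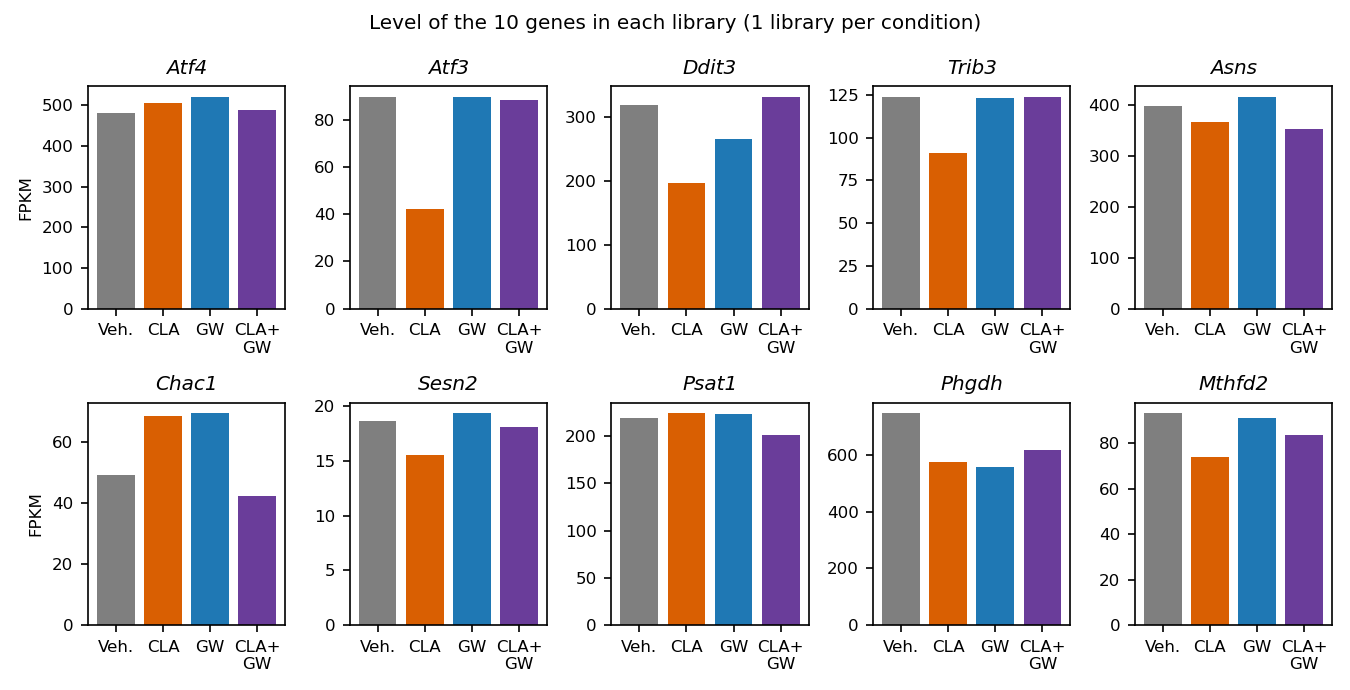
FPKM (y axis, from 0) of each of the 10 genes in the Vehicle (Veh.), CLA, GW6471 (GW) and CLA+GW6471 (CLA+GW) libraries, 1 bar per library and no error bar since each condition has 1 library. Atf3, Ddit3 and Trib3 have their shortest bar in CLA, Chac1 is tall in CLA and GW6471, and the bars of Atf4 are nearly level.

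Among the transcription factors, Atf4 itself was nearly level. The gene (chr15:80085614-80087970, plus strand, mm9) encodes the factor that heads the program. Its level was 482.25 FPKM in Vehicle, 506.05 in CLA, 521.71 in GW6471, with 488.47 in CLA+GW6471, so that its highest library was 1.08-fold above its lowest. The log2 ratio of CLA to Vehicle was 0.07 (95% counting interval 0.04 to 0.10), and those of the other 3 comparisons ran from -0.09 to 0.11. At this depth, with 15597 to 17179 estimated reads, these small ratios lay beyond their counting intervals. So did 65.5% of the 9762 genes with a known transcript length in CLA against Vehicle, 54.9% in GW6471 against Vehicle, 68.7% in CLA+GW6471 against CLA and 59.2% in CLA+GW6471 against GW6471, so a ratio beyond its interval does not set a gene apart here.

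Atf3 differed most of the 10. The gene (chr1:192994175-193007219, minus strand) encodes a bZIP factor that is induced by ATF4 and, as an immediate early gene, by many other stress signals. Its level was 89.81 FPKM in Vehicle, 42.33 in CLA, 89.81 in GW6471, with 88.37 in CLA+GW6471. The CLA library alone was low, and the other 3 lay between 88.37 and 89.81 FPKM. Cd68 was high in the same library and makes up most of the sum of the 7 listed macrophage and blood genes (39.05 FPKM in CLA and 26.30 to 27.86 elsewhere), 5 of them with a mean below 1 FPKM. The part of Cd68 in the values of Atf3 and of Trib3 was not tested. For Atf3, the log2 ratio of CLA to Vehicle was -1.08 (-1.17 to -0.999), 2.12-fold lower, and 0.493% of the tested genes had a lower ratio. CLA+GW6471 was 2.09-fold higher than CLA, a log2 ratio of 1.06 (0.98 to 1.15). GW6471 against Vehicle gave 0 (-0.07 to 0.07), and CLA+GW6471 against GW6471 gave -0.02 (-0.09 to 0.05).

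Ddit3 (chr10:126727830-126733344, plus strand) encodes CHOP, a factor of prolonged stress that is known to promote cell death. Its level was 318.78 FPKM in Vehicle, 195.69 in CLA, 265.73 in GW6471, with 331.54 in CLA+GW6471. Unlike Atf3, it was also lower in GW6471 than in Vehicle, though by less than in CLA. The log2 ratio of CLA to Vehicle was -0.70 (-0.77 to -0.64), 1.63-fold lower. That of GW6471 to Vehicle was -0.26 (-0.32 to -0.21). CLA+GW6471 was 1.69-fold higher than CLA (log2 ratio 0.76, 0.70 to 0.82) and 1.25-fold higher than GW6471. Sox9, a cholangiocyte gene, had the same order, at 54.74 FPKM in Vehicle, 34.72 in CLA, 48.67 in GW6471, with 57.05 in CLA+GW6471. Spp1, of the same list, had the reverse order, at 372.04, 574.44, 452.82 and 301.97 FPKM. Their part in the values of Ddit3 was not tested.

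The effector genes showed 2 unlike patterns. Trib3 (chr2:152163158-152169768, minus strand) encodes a pseudokinase that restrains ATF4 and CHOP and binds the kinase AKT. It had 123.60 FPKM in Vehicle, 90.93 in CLA, 123.00 in GW6471, with 124.05 in CLA+GW6471. As with Atf3, the CLA library alone was low. Its log2 ratio of CLA to Vehicle was -0.44 (-0.51 to -0.38), a 1.36-fold lower level that did not reach 1.5-fold. CLA+GW6471 was 1.36-fold higher than CLA. Sesn2 (chr4:132047947-132066416, minus strand) encodes a leucine sensor that holds back mTORC1. It had 18.62 FPKM in Vehicle, 15.58 in CLA, 19.38 in GW6471, with 18.14 in CLA+GW6471, with a log2 ratio of CLA to Vehicle of -0.26 (-0.38 to -0.14).

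Chac1 (chr2:119176965-119180117, plus strand) encodes an enzyme that degrades glutathione and is a target of ATF4, ATF3 and CHOP. It had 49.29 FPKM in Vehicle, 68.57 in CLA, 69.58 in GW6471, with 42.33 in CLA+GW6471. Thus it was high in both single treatments and low in Vehicle and in the combination, where Ddit3 was high. The log2 ratio was 0.48 (0.38 to 0.57) for CLA against Vehicle and 0.50 (0.40 to 0.59) for GW6471 against Vehicle, both under 1.5-fold. CLA+GW6471 was 1.62-fold lower than CLA (log2 ratio -0.69, -0.80 to -0.60) and 1.64-fold lower than GW6471 (-0.72, -0.82 to -0.62). The summed hepatocyte genes were also high in CLA (1868.42 FPKM) and GW6471 (1526.46) and low in Vehicle (1007.50) and CLA+GW6471 (934.97), and their part in the values of Chac1 was not tested. That sum rests mostly on Alb. Of the 6 hepatocyte genes with a mean of at least 1 FPKM, 5 were higher in CLA and in GW6471 than in Vehicle. The same 5 were lower in CLA+GW6471 than in CLA and than in GW6471. The remaining gene, Hnf4a, which encodes a hepatocyte transcription factor, ran the other way, at 54.53 FPKM in Vehicle, 47.31 in CLA, 47.23 in GW6471, with 51.84 in CLA+GW6471.

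Of the biosynthetic enzymes, Asns and Psat1 varied less than each of these effectors, whereas Mthfd2 and Phgdh lay between Sesn2 and Trib3. Asns (chr6:7625169-7643254, minus strand), which makes asparagine, had 398.83 FPKM in Vehicle, 367.56 in CLA, 416.96 in GW6471, with 353.13 in CLA+GW6471. Its highest level was 1.18-fold above its lowest. Psat1 (chr19:15979168-16021827, minus strand), the second enzyme of serine synthesis, had 219.15, 224.35, 223.58 and 200.91 FPKM in the same order, a ratio of 1.12. Its ratios of CLA and of GW6471 to Vehicle lay within their counting intervals.

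Mthfd2 (chr6:83255685-83267600, minus strand), a mitochondrial folate enzyme that passes on the carbon units of serine, had 93.39 FPKM in Vehicle, 74.09 in CLA, 91.24 in GW6471, with 83.69 in CLA+GW6471. It was 1.26-fold lower in CLA than in Vehicle (log2 ratio -0.33, -0.40 to -0.26). Phgdh (chr3:98117093-98143913, minus strand) had 746.95 FPKM in Vehicle, 575.82 in CLA, 555.67 in GW6471, with 615.60 in CLA+GW6471. Vehicle alone was high, and all treated libraries were lower, with log2 ratios to Vehicle of -0.38 (-0.40 to -0.35) in CLA and -0.43 (-0.45 to -0.40) in GW6471. The value of Phgdh is uncertain, because its transcript had 15 further matches in the mm9 genome with at least 90% identity over at least 50% of its length, the best at 98.8% identity. Reads could be shared with these copies. None of the other 9 transcripts had such a match.

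The genes with the composite element did not share a direction. The log2 ratios of CLA to Vehicle were -1.08 in Atf3, -0.44 in Trib3, -0.12 in Asns and 0.48 in Chac1. Atf3 and Chac1, which hold the same 8 letters, thus stood at opposite ends of the 10 genes in this comparison. Ddit3, without the letters in its window, was at -0.70.

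CLA against Vehicle was the comparison of the study's diet. In it, 2 of the 10 genes were lower by at least 1.5-fold, Atf3 and Ddit3, and 0 were higher, against 4.95% lower and 7.3% higher of all tested genes. The median log2 ratio of the 10 genes was -0.29, beside -0.0071 over all tested genes. Beyond the counting interval, 7 genes were lower, against a background of 33.5%, and 2 were higher, against 32.1%. Psat1 lay within its interval. More reads narrow an interval, and each of the 10 genes had a mean above at least 71.1% of the listed genes. The shares beyond the interval, here and below, were not matched for level, so they are not a like comparison. At 2-fold, 1 gene was lower, Atf3, and 0 were higher, against 0.744% and 1.79%.

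GW6471 against Vehicle asked for the action of the antagonist on the control diet. No gene of the 10 passed 1.5-fold in either direction, where 3.28% of all tested genes were higher and 2.1% lower. At 2-fold the backgrounds were 0.56% and 0.309%, also with 0 of the 10 genes. Beyond the counting interval, 3 genes were higher and 2 lower, against 27.6% and 27.4%. The median log2 ratio was 0.014, and that over all genes was -0.0041. The extremes were Phgdh at -0.43 and Chac1 at 0.50. The median size of the ratio, without its sign, was 0.061 in the 10 genes and 0.16 in all tested genes.

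CLA+GW6471 against CLA asked for the action of the antagonist on the CLA diet. Atf3 and Ddit3 were higher by at least 1.5-fold, and Chac1 was lower, against backgrounds of 6.84% and 9.15%. At 2-fold, Atf3 was higher and 0 genes were lower, against 1.27% and 2.67%. Beyond the counting interval, 6 genes were higher and 4 lower, against 34.9% and 33.7%. The median log2 ratio of the 10 genes was 0.14, beside 0.0090 over all genes. This comparison shares the CLA library with that of CLA against Vehicle, so the low values of Atf3, Ddit3 and Trib3 in that library enter both. In CLA+GW6471 against GW6471, which shares no library with CLA against Vehicle, 1 gene of the 10 was lower, Chac1, and 0 were higher, against 3.88% and 2.81% of all tested genes. At 2-fold, 0 of the 10 genes were lower or higher, against 0.802% and 0.357%. Beyond the counting interval, 2 genes were higher and 5 lower, against 28.9% and 30.3%. In 4 genes the ratios of CLA+GW6471 to GW6471 and of CLA to Vehicle had opposite signs, each beyond its interval, against 40.1% of all such genes. The median was -0.09, beside 0.0041 over all genes.

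**Figure D3:**
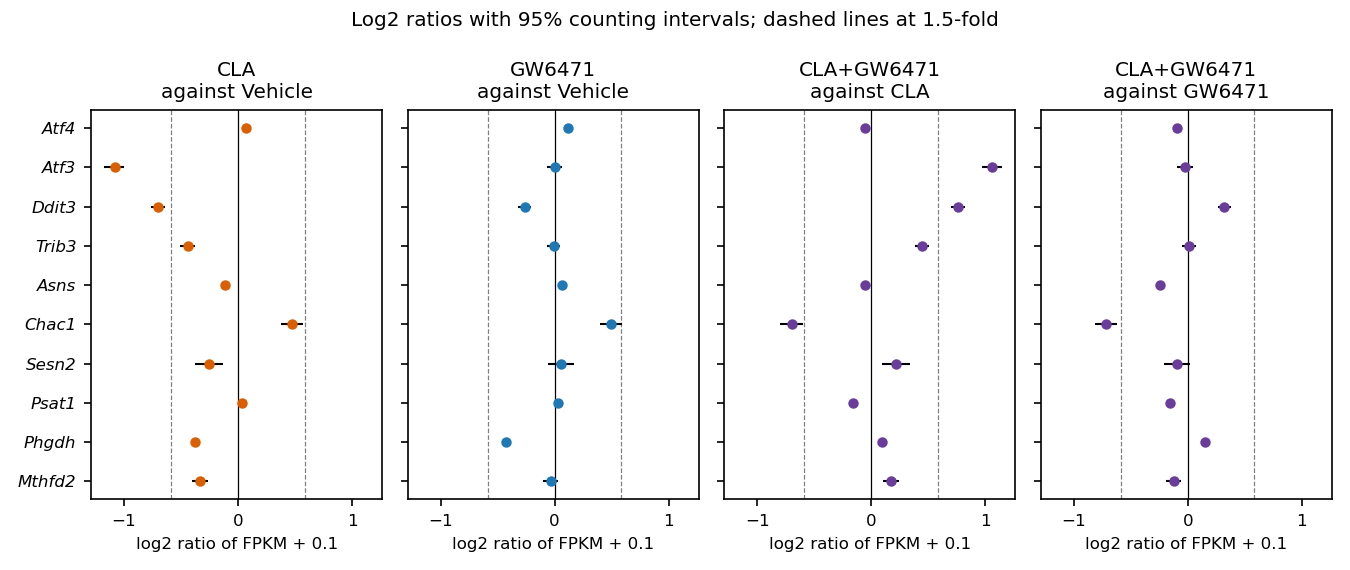
Log2 ratio of FPKM + 0.1 (x axis) of the 10 genes in the 4 comparisons, with 95% counting intervals as bars and 1.5-fold as dashed lines. Atf3 and Ddit3 pass the lower line in CLA against Vehicle and the upper line in CLA+GW6471 against CLA, while Chac1 passes the lower line in both comparisons of CLA+GW6471.

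None of the 6 genes for sensors upstream of eIF2α passed 1.5-fold in any comparison, beside 7.3% higher and 4.95% lower of all tested genes in CLA against Vehicle and 3.28% and 2.1% in GW6471 against Vehicle. The shares were 6.84% and 9.15% in CLA+GW6471 against CLA and 2.81% and 3.88% in CLA+GW6471 against GW6471, so that 0 of 6 is near the background. Eif2ak3, which encodes the ER stress kinase PERK, had 10.11 FPKM in Vehicle, 13.00 in CLA, 11.44 in GW6471, with 11.03 in CLA+GW6471. Eif2ak4, which encodes the amino acid sensor GCN2, had 6.74, 8.62, 8.27 and 7.42 FPKM in that order. For the heme-regulated kinase gene Eif2ak1 the range was 18.18 to 19.92 FPKM, and for the RNA-activated kinase gene Eif2ak2 it was 5.29 to 5.46. Gcn1l1, whose product activates GCN2, ranged from 24.39 to 27.22 FPKM. Impact, whose product inhibits GCN2, had its highest value in Vehicle (14.07 FPKM) and its lowest in CLA (10.37 FPKM), a log2 ratio of -0.44 that equals that of Trib3 to 2 decimals.

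Of the 10 genes of eIF2, its exchange factor eIF2B and the phosphatase that acts on eIF2α, 2 were lower in CLA than in Vehicle by at least 1.5-fold, Ppp1r15a and Eif2b2, and 0 were higher, against 4.95% and 7.3% of all tested genes. Ppp1r15a encodes GADD34, the inducible phosphatase subunit that ends the response. It had 141.29 FPKM in Vehicle, 60.59 in CLA, 106.63 in GW6471, with 150.56 in CLA+GW6471. This is the order of Ddit3, with a larger difference, at a log2 ratio of CLA to Vehicle of -1.22 beside -0.70 for Ddit3. Eif2b2 had 43.10, 28.30, 28.13 and 42.65 FPKM in the same order of libraries, low in both single treatments, and Eif2b1 ranged from 18.57 to 25.34 FPKM. The constitutive phosphatase subunit gene Ppp1r15b stayed between 30.43 and 35.97 FPKM. The list's median log2 ratio of CLA to Vehicle was -0.23. In CLA+GW6471 against GW6471, Eif2b2 was the gene called higher and 0 were lower, against 2.81% and 3.88%.

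Among 18 partners and feedback factors of ATF4 with a mean of at least 1 FPKM, 3 were higher and 2 lower in CLA than in Vehicle, and 1 was higher and 5 lower in CLA+GW6471 than in GW6471. The shares over all tested genes were 7.3% and 4.95% in the former comparison and 2.81% and 3.88% in the latter. Nupr1, a stress-induced chromatin protein gene, had 249.94 FPKM in Vehicle, 110.73 in CLA, 151.27 in GW6471, with 255.93 in CLA+GW6471, again low in CLA. Gdf15, a secreted stress hormone, was also lowest in CLA, at 143.90 FPKM against 219.10 in Vehicle. Ddit4, which encodes an inhibitor of mTORC1, was high in CLA and GW6471 as Chac1 was, at 46.91 FPKM in Vehicle, 79.67 in CLA, 75.60 in GW6471, with 44.79 in CLA+GW6471. The C/EBP partner genes Cebpb and Cebpg had log2 ratios of CLA to Vehicle of -0.22 and -0.35. The paralogs of 2 of the 10 genes differed from them. Trib2 had 2.84, 8.53, 5.64 and 2.18 FPKM in Vehicle, CLA, GW6471 and CLA+GW6471, where Trib3 was lowest in CLA. Sesn1, likewise, had its highest level in CLA, 4.51 FPKM against 1.69 in Vehicle, where Sesn2 had its lowest. Fgf21, a liver hormone known as an ATF4 and PPARα target, was listed at 0 in Vehicle, CLA and CLA+GW6471 and at 0.11 FPKM in GW6471.

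The other enzymes for serine, glycine, folate-borne carbon units, cysteine and proline were within 1.5-fold in CLA against Vehicle and in GW6471 against Vehicle, all 15 of those with a mean of at least 1 FPKM, beside 7.3% higher and 4.95% lower of all tested genes in the former and 3.28% and 2.1% in the latter. Shmt2, which turns serine into glycine in mitochondria beside Mthfd2, had 308.28 FPKM in Vehicle, 206.21 in CLA, 232.78 in GW6471, with 295.01 in CLA+GW6471. Cth, the cysteine-forming enzyme of transsulfuration, had 33.24, 31.94, 30.35 and 17.66 FPKM and was the list's gene called lower in CLA+GW6471, against CLA (background 9.15%) and against GW6471 (3.88%). Gpt2, an alanine aminotransferase gene, had its highest value in GW6471 (49.81 FPKM) and its lowest in CLA+GW6471 (33.24 FPKM).

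The 20 cytosolic aminoacyl-tRNA synthetase genes, known as a group of ATF4 targets, had a median log2 ratio of CLA to Vehicle of -0.09, with 1 lower by 1.5-fold and 0 higher, close to the background of 4.95% and 7.3%. That gene was Aars, for alanine, with 160.41 FPKM in Vehicle, 96.48 in CLA, 132.18 in GW6471, with 168.34 in CLA+GW6471. Gars, for glycine, ran the other way, at 318.74, 382.10, 359.01 and 265.12 FPKM, as did Qars, for glutamine, with 59.81 FPKM in CLA and 39.93 in CLA+GW6471. The letters of the composite element occurred in the windows of 5 of the 13 genes of this list that had one, Aars and Gars among them, beside 4.51% of all genes with a window. The 17 mitochondrial synthetase genes had a median of 0.027, with 1 higher and 1 lower, again near these shares. Mars2, Sars2 and Yars2 varied most, and Mars2 had 7.10 FPKM in Vehicle and 3.46 in CLA.

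Amino acid transporters, the ER chaperones and the immediate early genes were set beside the 10 genes as the nearest groups. Of 11 transporter genes with a mean of at least 1 FPKM, 2 were higher and 2 lower in CLA than in Vehicle, beside 7.3% and 4.95% of all tested genes. Slc7a11, the cystine transporter that supplies glutathione synthesis, followed the order of Chac1, with 28.08 FPKM in Vehicle, 44.62 in CLA, 52.65 in GW6471, with 24.51 in CLA+GW6471. Slc43a3 had 21.15, 7.77, 12.36 and 22.69 FPKM, and Slc38a3 was low throughout, between 0.55 and 1.84 FPKM. Of 18 genes of ER chaperones and the XBP1 branch, 3 were higher and 1 lower in CLA than in Vehicle (7.3% and 4.95% of all tested genes), with a median log2 ratio of 0.24, opposite in sign to the -0.29 of the 10 genes. The difference between these medians was not tested. Those higher were Sdf2l1, at 7.90 FPKM in CLA and 3.25 in Vehicle, the protein disulfide isomerase gene Pdia4, at 103.32 and 61.56 FPKM, and Herpud1. Pdia6, at 151.61 and 107.43 FPKM, was under 1.5-fold. Hspa5, which encodes the chaperone BiP and was the most abundant of the list, was lowest in CLA, at 595.91 FPKM against 790.15 in Vehicle (log2 ratio -0.41), and Dnajb9 had a log2 ratio of -0.23. In all, 13 of the 18 genes had a ratio above 0 and 5 below. The gene called lower was Ern1, which encodes the sensor IRE1, at 41.11 FPKM in Vehicle and 25.73 in CLA.

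The immediate early list held 12 genes, of which 1 was higher and 3 lower in CLA than in Vehicle, where all tested genes gave 7.3% and 4.95%. Jun, whose product pairs with ATF3, had 17.52 FPKM in Vehicle, 8.02 in CLA, 18.69 in GW6471, with 22.27 in CLA+GW6471, low in the CLA library alone as Atf3 was. Myc had 386.83, 203.56, 279.68 and 408.62 FPKM, and Fosl1 had 173.77, 98.46, 135.43 and 204.49. Both were lowest in CLA and highest in CLA+GW6471, as was Ddit3. The gene called higher was Ier3, at 43.49 FPKM in Vehicle and 70.76 in CLA.

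**Figure D4:**
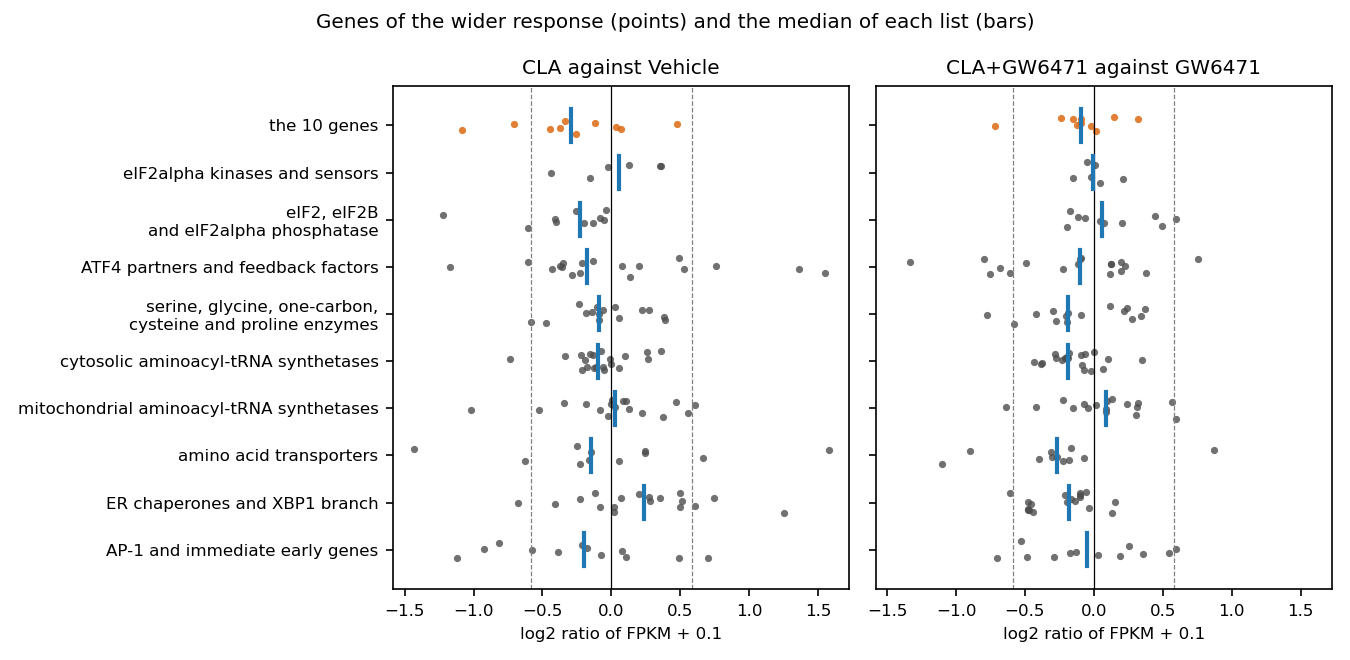
Log2 ratio of FPKM + 0.1 (x axis) of each gene with a mean of at least 1 FPKM in the 10 genes and 9 lists of the wider response, in CLA against Vehicle and in CLA+GW6471 against GW6471, with the median of each list as a bar and 1.5-fold as dashed lines. In CLA against Vehicle the median of the 10 genes is -0.29 and that of the ER chaperones 0.24, and in the other comparison both lie below 0.

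Genes whose profile over the 4 libraries was most like that of a member were sought among the 8197 genes with a mean of at least 5 FPKM, by the Euclidean distance between log2 values centred over the libraries. For Ddit3 these were Foxo1 (distance 0.0027), Aars (0.032) and Smtn (0.040), and 40 genes lay within a distance of 0.1. Foxo1 had 6.91, 4.20, 5.73 and 7.19 FPKM in Vehicle, CLA, GW6471 and CLA+GW6471. For Asns the nearest were Nnmt (0.023), Rnf138 (0.026) and Cenpe (0.027), with 171 genes within 0.1. For Atf4, whose profile is nearly flat, they were Ints8 (0.011), Smad4 (0.017) and Slc35a1 (0.019), with 531 genes within 0.1. Within the 10 genes the closest pair was Sesn2 and Mthfd2, at 0.089. With 4 libraries, such distances describe these libraries alone.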

How the data were processed

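Liver RNA libraries (Illumina), 1 per condition, were mapped by the authors to mm9 with BWA and Bowtie and quantified with Cufflinks. The sources used here give neither versions nor the filter behind the listed genes. The authors deposited FPKM with 2 decimals for 15500 genes, and the unit, absent from the table's header, is that of the study's supplementary sheet. Columns were assigned to groups by their labels. Log2 ratios used a pseudocount of 0.1 FPKM and lists a mean of at least 1 FPKM. Depth was estimated from the FPKM steps of 499 genes under 1000 nt with 1 transcript in GENCODE vM1, and these estimates served for counting intervals only. The steps were tested on simulated data. Calculations used Python 3.11.15, numpy 2.4.6, pandas 2.3.3, scipy 1.17.1, matplotlib 3.10.9 and blastn 2.17.0.

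The members and lists were chosen with earlier results of these data known. Named besides the 10 genes were all eIF2α sensors, the 3 most variable genes of each list (mean of at least 1 FPKM) and the 3 nearest profiles of Atf4, Ddit3 and Asns. Further genes, and the PPARα targets, were named after their values were seen. Alternatives were other pseudocounts, filters, scalings and a 2-fold limit.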

Additional observations from a re-analysis of the deposited data

Results flagged for a closer look

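In 4 of the 10 genes the CLA diet went with opposite differences without and with GW6471, each beyond its counting interval. The difference between the log2 ratio of CLA+GW6471 to GW6471 and that of CLA to Vehicle was 1.02 for Ddit3 (0.32 against -0.70), -1.19 for Chac1 (-0.72 against 0.48), 0.52 for Phgdh (0.15 against -0.38) and -0.16 for Atf4 (-0.09 against 0.07). The difference was not tested, since each condition has 1 library. Of the 9762 genes with a known transcript length and a mean of at least 1 FPKM, 40.1% met the same description. These genes were not matched to the 10 genes in level, on which the width of an interval depends.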

How the results depend on the processing

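No paired analysis was possible because each condition has 1 library, and for the same reason no replicate could be left out. The filters (none, or a mean of at least 5 FPKM) could not change a count or median of the members, whose lowest mean was 17.9 FPKM. Of the 56 values of counts and medians under the other alternatives (pseudocounts of 0.01 and 1, the same FPKM sum, median of ratios, 2-fold), 51 stayed within 1.5 times the main count or within 0.060 of the main median. A limit of 2-fold could not raise a count, so the counts already at 0 could not change under it, and they are among the 51. All other counts fell under it. The members lower in CLA than in Vehicle were 1, those higher in CLA+GW6471 than in CLA were 1, and those lower in CLA+GW6471 than in CLA or in GW6471 were 0. With libraries scaled to the same FPKM sum, the median of CLA+GW6471 against GW6471 was -0.16 in place of -0.09. Of 160 values of single genes, 149 stayed within their counting intervals, and no gene crossed 1.5-fold under another pseudocount or scaling. The sign turned for Trib3 in GW6471 against Vehicle (-0.0070 to 0.036) and CLA+GW6471 against GW6471 (-0.054 to 0.012) and for Mthfd2 in GW6471 against Vehicle (-0.034 to 0.0092). Of the 40 ratios of the members, 9 lay within their counting intervals and could not be told from 0 at this depth.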
